A study of Mus musculus with 18 samples.

Results

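Actinomycin D in stimulated T cells was examined in 4 RNA-seq libraries of the 18 samples in the series: Th2 cells and CD8 T cells, each stimulated, with and without the drug. Each cell type gives 1 matched pair, and the genes described are the 10965 of 43432 in the table whose mean over these 4 libraries was at least 50 scaled reads. A scaled read is a gene's read count divided by 1 factor per library. At the edge of that minimum, the predicted snoRNA Gm24299 was just inside with a mean of 50.03 and Sgce just outside with 49.99.

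All cells came from C57BL/6 mice (C57BL/6 J in the study's methods) and had been activated by antibodies to CD3 and CD28 on coated plates, within a culture of 5 days. Th2 cultures were polarised with IL-4, anti-Ifn-gamma and IL-2, and CD8 cultures received IL-12 and IL-2. The stimulated groups were restimulated with PMA and ionomycin for 4 h before harvest, and the actinomycin groups also received actinomycin D. By the labels the cells of all these groups were also irradiated with UV light at 254 nm and 8000 mJ, which crosslinks protein to RNA. Each condition is a single library, so the Th2 and CD8 pairs stand in for replicates. A gene's p-value rests in part on the spread between its own pairs, with 1 residual degree of freedom. It rests mostly on the spread of other genes at a similar level, which counted for 12.7 degrees of freedom. A low p-value therefore does not show that the pairs agree. Btg2 passed the threshold with log2 changes of -0.17 in the Th2 pair and -3.75 in the CD8 pair. The study's methods place the drug after the stimulation and describe several exposure times, of which the time used for sequencing is not given in the sources used here. They also describe cells pooled from several mice. RNA for sequencing came from lysates cleared of nuclei and was selected with oligo-dT, while drug-treated cells were lysed separately in Trizol. Whether the drug-treated RNA went through the same steps is not stated, so a difference in preparation cannot be told apart from the drug.

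Actinomycin D intercalates into DNA and blocks transcription by all nuclear RNA polymerases. In its presence no new message replaces what is degraded, so the level of a short-lived mRNA drops while a stable one persists, and the drug is a standard tool for ranking transcript stability. T cells restimulated through protein kinase C and calcium transcribe immediate-early genes, cytokines and feedback inhibitors within hours. Many of those mRNAs are short-lived and carry AU-rich elements, which recruit decay factors, in their 3′ UTRs. The values are shares of each library's RNA and not amounts per cell, so a fall means a loss relative to other transcripts, and a rise can mean slower loss. A loss of existing message and a rise that did not take place cannot be told apart here.

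The labels were checked against marker genes. Cd3e read between 4479 and 6850 scaled reads in the 4 libraries. Cd4 was 20061 and 37162 in the Th2 libraries against 281 and 33.8 in the CD8 libraries, and Cd8a was 12771 and 15378 in the CD8 libraries against 1410 and 2164 in the Th2 libraries. The Th2 libraries thus held Cd8a and Cd8b1 reads at a lower level. Il1rl1 went against its place on the Th2 list, with 113 and 79.9 in the Th2 libraries and 3563 and 3072 in the CD8 libraries. The 6 erythroid markers summed to at most 6.80 scaled reads in any library. Of 10 listed myeloid markers 9 had values, S100a8 being at 0 throughout. They summed to 194 and 133 without and 385 and 476 with the drug. The 8 B cell markers summed to 9167 and 3388 without and 11215 and 7971 with it. The 8 antigen-presenting markers summed to between 2240 and 7868, the 5 NK markers to between 316 and 5524, and the 7 stromal markers, with Col3a1 and Cdh5 at 0, to between 795 and 2373. Their part in the results was not tested. The libraries held between 24154849 and 27926607 gene reads, and 1 read was worth between 0.952 and 1.19 scaled reads.

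Actinomycin lowered 2471 genes and raised 1524 of the 10965 tested (limma with the cell type as a block, Benjamini-Hochberg adjusted p under 0.05), which is 22.5% and 13.9% of the genes and 36.4% together. Among those that fell, 588 fell at least 4-fold and 197 at least 8-fold. Among those that rose, 73 rose at least 4-fold and 8 at least 8-fold. Falls of at least 4-fold in both pairs were seen in 397 genes (3.62%) and rises of that size in 40 (0.365%), and changes of at least 8-fold in both in 127 (1.16%) and 4 (0.0365%). The balance of falls and rises depended on the scaling. The share of calls that were rises was 38.1% with the deposited values, 52.3% after quantile normalisation, 50.03% after scaling to the library total and 17.5% after scaling to the ribosomal protein genes. Against a median log2 change of -0.02 over all genes with the deposited values, those settings moved the median to 0.15, 0.11 and -0.31.

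The 2 cell types changed alike. In 8700 genes (79.3%) the Th2 and CD8 pairs moved in the same direction, and across genes their log2 changes correlated with a Pearson coefficient of 0.801 and a Spearman coefficient of 0.776. This is a description over genes, which are not independent replicates, in pairs that share no library. The changes had a standard deviation over genes of 1.17 in the Th2 pair and 1.06 in the CD8 pair on the log2 scale.

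**Figure D1:**
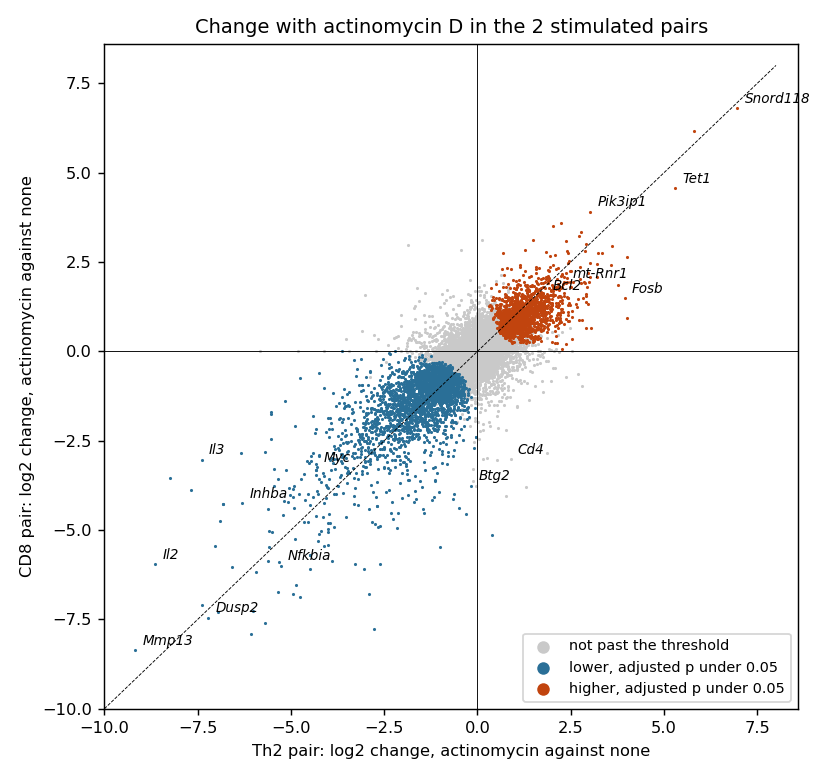
Log2 change with actinomycin D in the stimulated Th2 pair (horizontal axis) and CD8 pair (vertical axis) for 10965 genes, coloured by their call, with the dashed line marking equal change. Most called genes lie along that line, with Mmp13, Il2 and Dusp2 at one end and Snord118 and Tet1 at the other, while Cd4 and Btg2 lie away from it.

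Among genes with a mean of at least 250, the 12 largest falls were those of Mmp13, Dusp2, Il2, Il1a, Tagap, Nr4a3, Mmp10, Ccl4, Pdgfb, Ptgs2, Olr1 and Nfkbia, with log2 changes from -8.77 to -5.64. In every one of them both libraries with the drug lay below both libraries without it, which the choice by size and shared direction makes likely. Without the drug each of the 12 was higher in stimulated than in resting cells of both types. The log2 difference lay between 2.59 for Dusp2 in CD8 cells and 10.26 for Il2 in Th2 cells. The 12 were chosen through the same stimulated libraries, which favours high values there, so this is no separate support.

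Mmp13, which encodes a collagenase, read 1681 scaled reads in stimulated Th2 cells and 1.90 with the drug, and 1315 in stimulated CD8 cells and 2.98 with the drug. Its log2 change of -8.77 ± 0.45 (SE, 2 pairs, adjusted p = 2.74e-08) was the largest fall in the table. Where 2 values of a cell type stand together, the library without the drug comes first. The stromelysin gene Mmp10 went from 5926 to 145 in Th2 cells and from 6555 to 60.6 in CD8 cells.

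Dusp2 (chr2:127336159-127338376 on the plus strand, mm10) encodes a nuclear phosphatase that switches off MAP kinases. It read 11202 without and 74.2 with the drug in Th2 cells, and 14947 without and 84.4 with it in CD8 cells. The drug libraries kept 0.663% and 0.565% of the level, so the cell types were close, and the log2 change was -7.33 ± 0.25 (SE, adjusted p = 9.42e-10), a 161-fold fall.

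Il2 (chr3:37120523-37125959 on the minus strand), the T cell growth factor, differed widely in level between the cell types but fell in both. It read 23234 and 57.1 in the Th2 libraries and 557 and 7.95 in the CD8 libraries. The share left was 0.246% in the Th2 pair and 1.43% in the CD8 pair, and the log2 change was -7.30 ± 0.47 (SE, adjusted p = 2.10e-07).

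Il1a, an inflammatory cytokine gene, read 952 and 4.76 in the Th2 libraries and 135 and 0 in the CD8 libraries, where a count of 0 allows up to 2.98 scaled reads. Ptgs2, the inducible cyclooxygenase, read 1139 and 8.56 in the Th2 libraries and 52.2 and 0.993 in the CD8 libraries. Olr1, a scavenger receptor for oxidised lipoprotein, read 1975 and 8.56 in the Th2 libraries and 58.1 and 2.98 in the CD8 libraries. These 3 genes were much higher in stimulated Th2 than in stimulated CD8 cells, and their libraries with the drug held few reads.

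Nr4a3, an orphan nuclear receptor induced by antigen receptor signals, read 3187 and 32.4 in the Th2 libraries and 3535 and 52.6 in the CD8 libraries. Ccl4, a chemokine that attracts macrophages and T cells, read 6259 and 202 in the Th2 libraries and 21439 and 192 in the CD8 libraries. Pdgfb, a platelet-derived growth factor chain, read 3557 and 130 in the Th2 libraries and 9013 and 75.5 in the CD8 libraries. Ccl4 and Pdgfb started higher in CD8 cells and ended at or below the Th2 level with the drug. Tagap, which encodes an activator of GTPase activity, went from 3808 to 56.1 and from 8628 to 34.8, but 47.6% of its transcript words of 50 bases also occur in another annotated gene, so its reads are less certain.

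**Figure D2:**
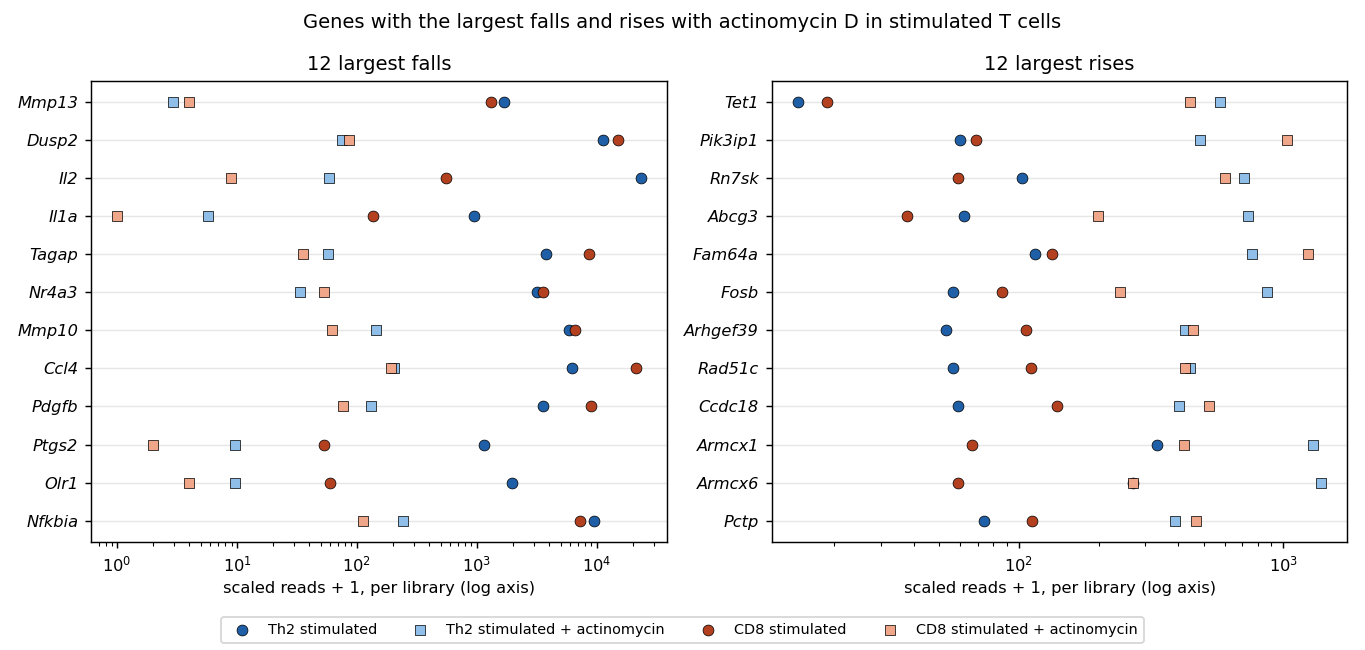
Scaled reads plus 1 in each of the 4 stimulated libraries (log axis), 1 row per gene, for the 12 genes with the largest falls (left) and the 12 with the largest rises (right); circles are libraries without and squares libraries with actinomycin D. For the falls all squares lie to the left of all circles, for example 74.2 and 84.4 against 11202 and 14947 for Dusp2, and for the rises they lie to the right except in Armcx6, where 1 circle and 1 square coincide at 269.6 and 270.2.

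Several of the genes that fell carry AU-rich sequence in their 3′ UTR under a peak of GCLiPP, the study's method for mapping RNA that is crosslinked to any protein. The following windows of 30 bases come from 70-base GCLiPP peaks pooled by the authors over 10 libraries, read on the transcript strand with the letters of GENCODE M21 transcripts (GRCm38, the build mm10). They were picked after the values were seen, to show a cytokine, a chemokine, a phosphatase and a transcription factor that fell, and for contrast Zfp36 and Bcl2, which rose. Capitals mark ATTTA, the core of AU-rich elements. All lie in annotated 3′ UTRs, and several lie at an end of their peak. Peak scores were 103 for Dusp2, 42 for Ccl3, 37 for Zfp36 and 29 for Csrnp1, against a list median of 24. They were below it for Inhba (20), Il2 (19), Bcl2 (17) and Csf2 (14). Their positions are chr2:127338299-127338328 (plus) for Dusp2, chr3:37121053-37121082 (minus) for Il2, chr13:16029380-16029409 (plus) for Inhba, chr9:119972070-119972099 (minus) for Csrnp1, chr11:83648039-83648068 (minus) for Ccl3, chr11:54247345-54247374 (minus) for Csf2, chr7:28376971-28377000 (minus) for Zfp36 and chr1:106541932-106541961 (minus) for Bcl2.
Dusp2: tggaaacagcactttatATTTAtatagaac
Il2: cacataaggctctctATTTATTTAaatatt
Inhba: cagttattcATTTAcatATTTAaaatatag
Csrnp1: ttaacactctgaATTTATTTAtttttttat
Ccl3: actATTTAattttgtaATTTAttttattgt
Csf2: ATTTAtatATTTAtattttttaaatATTTA
Zfp36: ccaaccagtgggccctttATTTAtgacgac
Bcl2: gcagtgctgtcacATTTAaggcaaggcttt

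The pentamer was common whether or not a gene fell. It occurred in the 3′ UTR of 75.8% of the 2352 protein-coding genes that fell and had an annotated 3′ UTR, in 75.8% of the 1442 that rose and in 67.7% of the 6599 that passed in neither direction, against 70.6% of all 10393. Among GCLiPP peaks with a sequence, 8.46% of the 6569 peaks in genes that fell, 8.34% of the 2290 in genes that rose and 7.55% of the 15462 in genes that passed in neither direction held it, against 7.90% of all 26302. Restricting to peaks scored above the median of the list gave 8.38%, 6.80% and 7.37%. The median 3′ UTR length was 1309.5 bases in genes that fell, 1306.5 in genes that rose and 1078 in genes that passed in neither direction. The longer AU-rich element TTATTTA followed by 2 bases that are each A or T was found in 21.8%, 18.7% and 16.7% of the 3 gene classes, against 18.1% of all.

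Graded by the number of such elements, 21.6% of genes with none fell, 25.5% of those with 1 and 32.5% of those with 2 or more, while the share that rose stayed between 13.8% and 14.4%. The 468 genes with 2 or more had a median log2 change of -0.25 against 0.00 in the 8512 with none. They also had a higher median level, 1392 against 1003 scaled reads. The number of exons was graded more steeply. Of the 131 single-exon protein-coding genes 43.5% fell and 4.58% rose, and of the 1465 genes with 21 or more exons 17.3% fell and 17.7% rose. The single-exon genes had a median level of 300.1 scaled reads and those with many exons 1944. Genes with 10 or more GCLiPP peaks fell in 37.2% of cases and genes with none in 17.4%, but peak number also went with level, at a median of 6264 against 361 scaled reads. Within the highest of 3 level classes of about equal size, 18.0% of those with no ATTTA in the 3′ UTR, 29.4% of those with 6 to 9 copies and 25.7% of those with 10 or more fell. Within the middle class these shares were 20.5%, 26.1% and 26.5%. Within the lowest class they were 17.6%, 20.5% and 16.5%, so there genes with the most copies did not stand above genes with none. The part of level in the exon and peak gradients was not tested, nor that of 3′ UTR length in the nonamer and ATTTA gradients.

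**Figure D3:**
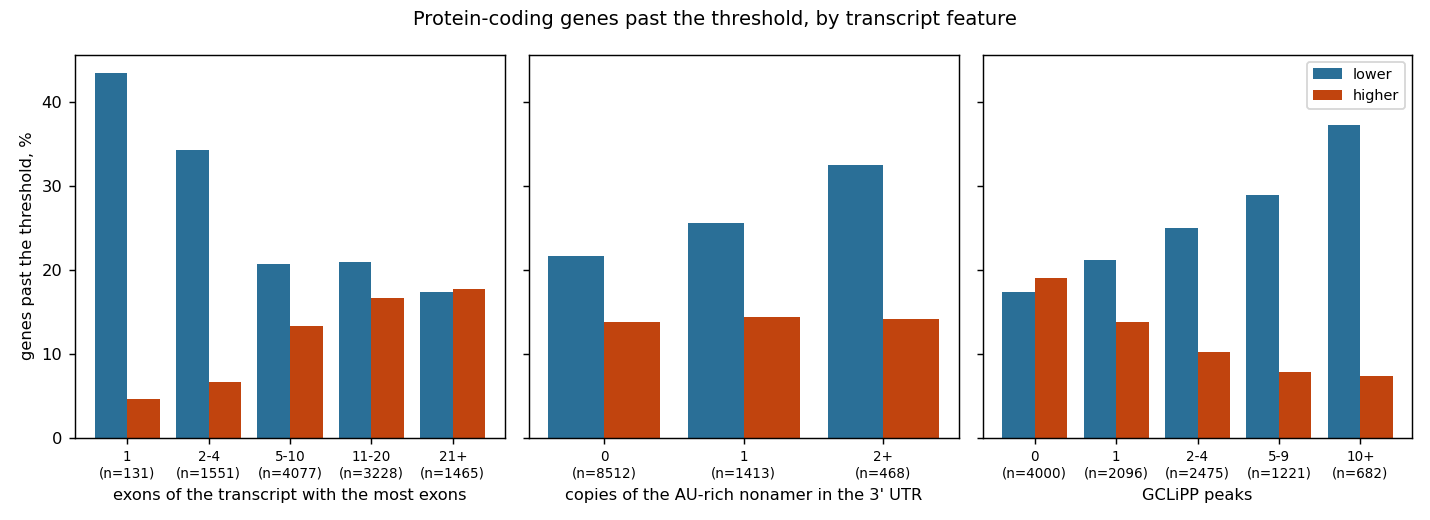
Percentage of protein-coding genes that fell (blue) or rose (orange) with actinomycin D, by number of exons, by copies of the AU-rich nonamer in the 3′ UTR and by number of GCLiPP peaks, with the number of genes under each bin. The share that fell goes from 43.5% to 17.3% with more exons, from 21.6% to 32.5% with more nonamers and from 17.4% to 37.2% with more peaks.

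By gene list, the feedback inhibitors of activation fell most uniformly. Every list count that follows is to be read beside the shares over all genes, 22.5% lower and 13.9% higher. Of the MAP kinase phosphatases and ERK inhibitors, all 14 measured members fell and none rose, with a median log2 change of -2.67 against -0.02 over all genes, and Dusp8 was under the minimum. After Dusp2, the next deepest were Dusp5 at -5.60 ± 0.25, Spry1 at -3.62 ± 0.59 and Dusp6 at -3.37 ± 0.22. Dusp6, which removes phosphate from ERK, read 20264 and 1807 in the Th2 libraries and 5325 and 554 in the CD8 libraries. In both cell types about the same share remained, 8.92% and 10.4%.

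Of 12 NF-kB inhibitors and subunits 11 fell, with a median of -2.76, against 22.5% lower over all genes. Nfkbia, which encodes the inhibitor that holds NF-kB in the cytoplasm, read 9434 and 243 in the Th2 libraries and 7239 and 112 in the CD8 libraries, a log2 change of -5.64 ± 0.26 (SE, adjusted p = 1.19e-08). Tnfaip3, the ubiquitin-editing enzyme A20, read 22428 and 761 in the Th2 libraries and 12789 and 337 in the CD8 libraries. Nfkbid followed at -4.24 and Nfkbie at -3.59. These 4 inhibitors fell further than the subunits, which lay between Rel at -3.20 and Nfkb1 at -1.88, whereas the inhibitors Nfkbib at -1.82 and Bcl3 at -1.27 fell less.

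Of 31 immediate-early transcription factors, 27 fell and 1 rose, against 22.5% lower and 13.9% higher over all genes. Their median was -1.85, with 2 listed genes under the minimum. The deepest were Nr4a3 at -6.31, Csrnp1 at -4.65, Bhlhe40 at -4.48 and Egr3 at -4.29. Myc, the master regulator of growth on activation, read 12116 and 610 in the Th2 libraries and 12367 and 1313 in the CD8 libraries, so 5.03% and 10.6% remained. The one that rose was Fosb, an AP-1 subunit. It read 55.5 and 867 in the Th2 libraries and 85.3 and 240 in the CD8 libraries, a log2 change of 2.71 ± 0.47 (SE, adjusted p = 0.000655). Without the Th2 pair its change was 1.48. Here and below, a fit without 1 stimulated pair keeps the other stimulated pair beside both resting pairs. Its p-values therefore rest on the spread of the resting pairs and of other genes, and not on agreement between stimulated pairs. In the resting libraries Fosb read 22.6 and 474 in the Th2 libraries and 27.0 and 139 in the CD8 libraries, so its level was higher with the drug in all 4 pairs.

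Cytokine transcripts fell nearly throughout, to very different depths, where 22.5% of all genes fell and 13.9% rose. Of 13 type 1 cytokines and cytotoxic ligands 11 fell, at a median of -2.71, and of 9 type 2 and regulatory cytokines 8 fell, at a median of -1.95. Of the latter 4 passed without the Th2 pair, at a median of -1.40, and 5 after quantile normalisation. Il3, a haematopoietic growth factor, went from 7537 to 43.8 in Th2 cells and from 226 to 26.8 in CD8 cells. Csf2, encoding GM-CSF, went from 8012 to 423 in Th2 cells and from 1112 to 145 in CD8 cells, a log2 change of -3.59 ± 0.31. The signature Th2 cytokine Il13 fell less, from 48058 to 8679 in Th2 cells and from 109 to 39.7 in CD8 cells, so 18.1% remained in the Th2 pair. Il4 went from 16079 to 3195 in Th2 cells and from 41.5 to 18.9 in CD8 cells.

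Il5, the eosinophil growth factor, went from 24943 to 2017 in Th2 cells and was 11.9 in both CD8 libraries. Its call rests on the Th2 pair, and without it the log2 change was 0.0075 (adjusted p = 0.993). Il4 did not pass without that pair either, at -1.10 (adjusted p = 0.165), nor did Areg at -1.03 (adjusted p = 0.412) or Il31 at -1.40 (adjusted p = 0.422). Ifng, the defining cytokine of CD8 effectors, went from 87665 to 31214 in CD8 cells and from 1385 to 124 in Th2 cells. In its own lineage 35.6% of Ifng remained, against 8.93% in the Th2 pair. Among the ligands of the TNF family, Tnfsf14 fell, at -4.13, as did Tnfsf11 at -4.11 and Fasl at -2.98 on the log2 scale.

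Of 10 chemokines 7 fell, against 22.5% lower over all genes, at a median of -3.33, with 4 under the minimum. Ccl1 went from 200.5 to 2.85 in Th2 cells and from 192 to 0 in CD8 cells. Ccl3 went from 3060 to 313 in Th2 cells and from 19911 to 320 in CD8 cells. Xcl1, the lymphotactin that draws cross-presenting dendritic cells, went from 1104 to 8.94 in CD8 cells and from 35.1 to 3.81 in Th2 cells.

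**Figure D4:**
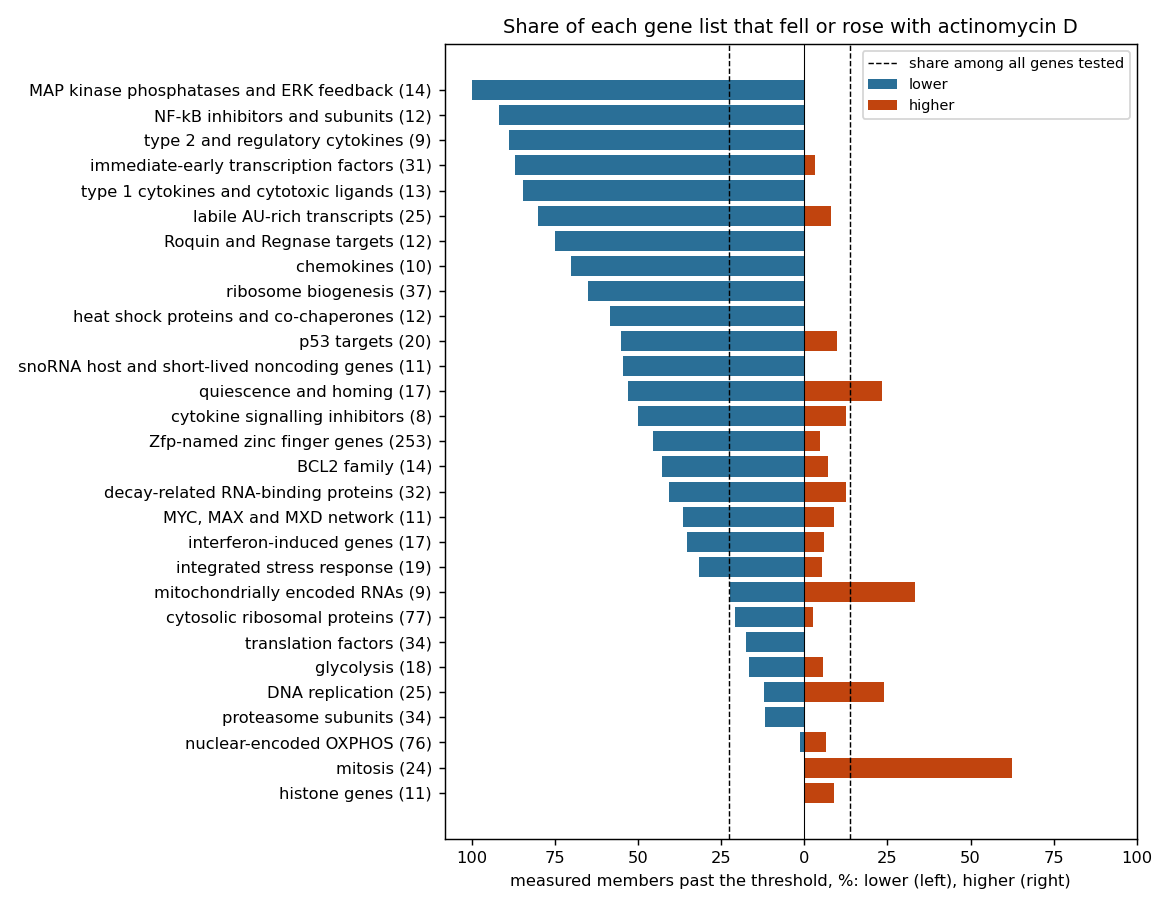
Percentage of the measured members of each gene list that fell (left, blue) or rose (right, orange) with actinomycin D, with the number measured in brackets; lists with under 8 measured members are not drawn. The dashed lines mark 22.5% lower and 13.9% higher, the shares among all genes tested, and the mitosis list, near the bottom, has 15 of 24 higher and 0 lower (10 higher and 1 lower after scaling to the ribosomal protein genes).

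Among regulators of survival and growth, neighbours in a family moved apart. Bcl2, which protects mitochondria against apoptosis, rose from 5973 to 21115 in Th2 cells and from 3807 to 11162 in CD8 cells, a log2 change of 1.69 ± 0.21 (SE, adjusted p = 4.77e-05). Its relative Bcl2l1, encoding BCL-XL, fell from 9466 to 1508 and from 8772 to 1146, at -2.79 ± 0.22. Over the BCL2 family 6 of 14 measured members fell and 1 rose, against 22.5% lower and 13.9% higher over all genes. After quantile normalisation 3 members fell. Bcl2a1b and Bcl2a1d also fell, but 79.2% and 79.5% of their sequence words are shared with another gene. Of the PIM kinases, Pim3 fell from 6142 to 1486 in Th2 cells and from 2263 to 763 in CD8 cells (log2 change -1.81 ± 0.24), Pim1 fell (-1.60), and Pim2 rose by 0.80 (adjusted p = 0.0188). The Pim2 rise did not hold after scaling to the ribosomal protein genes, at 0.51 (adjusted p = 0.118), or without the Th2 pair, at 0.44 (adjusted p = 0.124).

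For the next lists too the shares over all genes were 22.5% lower and 13.9% higher. Of the MYC, MAX and MXD network 4 of 11 fell and 1 rose, Mycn falling (-3.23) and Mxd3, a MYC antagonist, rising by 1.19. Of the cytokine signalling inhibitors 4 of 8 fell, led by Cish at -2.32 and Socs1 at -1.73, and Socs2 rose by 1.13. Without the Th2 pair neither Cish (-1.94, adjusted p = 0.111) nor Socs1 (-1.12, adjusted p = 0.129) passed, and after scaling to the ribosomal protein genes Mxd3 did not (0.90).

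Of 32 genes that themselves govern mRNA decay 13 fell and 4 rose, at a median of -0.42, against 22.5% lower and 13.9% higher over all genes. After quantile normalisation 8 fell and 4 rose. By edgeR and by DESeq2 11 fell and 1 rose, and after scaling to the ribosomal protein genes 18 fell and 1 rose. Zc3h12a, the endonuclease Regnase-1, fell from 1883 to 255 in Th2 cells and from 1112 to 195 in CD8 cells. Btg1, an antiproliferative partner of the deadenylase, fell (-2.61). Tia1, which binds AU-rich RNA, rose from 1601 to 5219 and from 1746 to 3757. Zfp36, encoding tristetraprolin, the protein that leads AU-rich mRNAs to decay, read 2237 and 2976 in the Th2 libraries and 1100 and 2050 in the CD8 libraries, at 0.65 ± 0.24 (SE, adjusted p = 0.0459). Its call was close to the threshold and was lost by DESeq2 (adjusted p = 0.0713), after scaling to the ribosomal protein genes (0.37, adjusted p = 0.251) and without the CD8 pair (0.41, adjusted p = 0.238). Of 25 labile AU-rich transcripts 20 fell and 2 rose, the 2 being Bcl2 and Zfp36. Of 12 Roquin and Regnase targets 9 fell and none rose, and some genes stand on more than one of these lists.

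The ribosome biogenesis and mitosis lists moved in opposite directions. Of 37 ribosome biogenesis genes 24 fell, none rose and 13 did not pass, at a median of -0.88. Over all genes 22.5% fell and 13.9% rose. Gnl3, encoding nucleostemin, read 9216 and 727 in the Th2 libraries and 7145 and 1306 in the CD8 libraries. Nop2 (-2.28), Rrs1 (-2.20) and Polr1b (-1.93), a subunit of RNA polymerase I, fell as well. The median was -1.32 in the Th2 pair and -0.57 in the CD8 pair.

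Of 24 mitosis genes 15 rose, none fell and 9 did not pass, against 13.9% higher and 22.5% lower over all genes. Their median was 0.70. Cenpf, a kinetochore protein, read 795 and 3020 in the Th2 libraries and 1043 and 2704 in the CD8 libraries (log2 change 1.65 ± 0.25, adjusted p = 0.000205). Cenpe, the kinetochore motor, read 1506 and 5234 in the Th2 libraries and 2086 and 5350 in the CD8 libraries. The spindle checkpoint kinase Bub1b rose from 1833 to 5779 and from 2621 to 6197. Under the scaling to ribosomal protein genes 10 of the 24 rose and 1 fell. Of 25 DNA replication genes 6 rose and 3 fell, against 13.9% higher and 22.5% lower over all genes. Under that scaling none of the 25 rose and 3 fell. Without the Th2 pair 2 of them rose, and without the CD8 pair 11.

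For the housekeeping lists the shares over all genes were again 22.5% lower and 13.9% higher. Of 34 proteasome subunits 4 fell, of 34 translation factors 6 fell, and none of either list rose. Without the CD8 pair 9 and 13 fell, and without the Th2 pair 2 and 6. Of 18 glycolysis genes 3 fell and 1 rose. Gapdh, often used as a reference gene, read 1198 and 317 in the Th2 libraries and 1217 and 447 in the CD8 libraries, at -1.68 ± 0.27 (SE, adjusted p = 0.000341), but 24.7% of its sequence words are shared. Hk2, the inducible hexokinase, fell (-1.44), as did the glucose transporter Slc2a1 (-1.35). Of 76 nuclear-encoded oxidative phosphorylation genes 5 rose and 1 fell, at a median of 0.31, and 16 rose after scaling to the library total, 17 without the CD8 pair and 1 after scaling to the ribosomal protein genes, where 3 fell.

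Of 77 cytosolic ribosomal protein genes 16 fell and 2 rose, and the median was 0.17, with 59 passing in neither direction. After scaling to the library total 18 rose and 14 fell, and after scaling to these genes themselves none rose and 18 fell. Without the CD8 pair 12 rose and 18 fell. The deepest falls were Rps27a at -3.79, Rpl10a at -3.74, Rpl23a at -3.15 and Rps6 at -2.89, with 20.9%, 20.8%, 50.1% and 43.8% of their sequence words shared with another gene. Rps27a read 966 and 55.2 in the Th2 libraries and 1041 and 92.4 in the CD8 libraries. The list's share of all reads went from 2.18% to 2.87% in Th2 cells and from 2.18% to 2.97% in CD8 cells.

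Mitochondrial transcripts, made by a polymerase of their own, went both ways. The 12S ribosomal RNA mt-Rnr1 rose from 21364 to 110037 in Th2 cells and from 21561 to 81269 in CD8 cells, at 2.14 ± 0.20 (SE, adjusted p = 4.73e-06). mt-Nd2 fell from 28786 to 14983 and from 35617 to 14433. Of the 9 measured 3 rose and 2 fell, at a median of -0.13, against 13.9% higher and 22.5% lower over all genes.

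Of 253 zinc finger genes with a Zfp symbol, which mostly encode transcription factors, 115 fell and 12 rose, at a median of -0.71. Zfp213 read 230 and 6.66 in the Th2 libraries and 203 and 13.9 in the CD8 libraries, though 56.6% of its exonic bases overlap another gene. Zfp334 (-3.55) and Zfp87 (-3.41) fell too. Of 20 p53 targets 11 fell and 2 rose, of 19 integrated stress response genes 6 fell and 1 rose, of 12 heat shock genes 7 fell and none rose, and of 17 interferon-induced genes 6 fell and 1 rose, against 22.5% lower and 13.9% higher over all genes. The p53 count was 6 lower after quantile normalisation, and 5 rose without the CD8 pair. The interferon list turned with 1 pair, with 3 lower and 6 higher at a median of 0.28 without the Th2 pair, and 8 lower and 1 higher at -0.83 without the CD8 pair. Of 11 histone genes 1 rose and none fell, against the same shares over all genes. Of the snoRNA host and short-lived noncoding genes 6 of 11 fell, led by Mir17hg, the host of an oncogenic microRNA cluster, which went from 4252 to 125 and from 2213 to 118. Of 6 nuclear and RNA polymerase III RNAs 2 rose and 1 fell, and for these last 2 lists too the shares over all genes were 22.5% lower and 13.9% higher.

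Small nucleolar RNAs, which guide ribosomal RNA modification, were examined after their values were seen. Of the 255 with a read in the 4 libraries, 31 passed the minimum, and a snoRNA that is high only without the drug passes through those libraries, so their count supports nothing by itself. Among these 31, 25 fell and 2 rose, and 19 of the 31 share over 20% of their sequence words or bases with another gene. Snord49a, processed from an intron, read 129 and 0 in the Th2 libraries and 129 and 1.99 in the CD8 libraries. The 2 that rose were Snord118 and Snord13, known as U8 and U13, which are transcribed from promoters of their own. Snord118 read 3.40 and 549 in the Th2 libraries and 0 and 110 in the CD8 libraries, and in resting cells 0 and 173 in the Th2 libraries and 0 and 96.5 in the CD8 libraries. Snord13 read 2.27 and 180 in the Th2 libraries and 0 and 70.5 in the CD8 libraries. Both were thus near 0 in every library without the drug that is described here and higher in every library with it. For these RNAs a difference in the oligo-dT or nuclei-clearing steps cannot be told apart from the drug, and neither was tested.

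Several of the genes that rose most were as high in resting cells without the drug. Their choice as rises favours a low value in the stimulated libraries without the drug, so this comparison is no separate support. The 12 largest rises with a mean of at least 250 were those of Tet1, Pik3ip1, Rn7sk, Abcg3, Fam64a, Fosb, Arhgef39, Rad51c, Ccdc18, Armcx1, Armcx6 and Pctp, with log2 changes from 4.93 to 2.23. Tet1 (chr10:62804570-62899118 on the minus strand), which oxidises methylated cytosine in DNA, read 13.6 and 573 in the Th2 libraries and 17.8 and 443 in the CD8 libraries. Its log2 change was 4.93 ± 0.41 (SE, adjusted p = 1.92e-06). In resting cells without the drug Tet1 read 502 in Th2 cells and 463 in CD8 cells, so the stimulated library without the drug was the low one in both cell types.

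Pik3ip1, an inhibitor of PI3 kinase in T cells, read 58.9 and 484 in the Th2 libraries and 67.6 and 1028 in the CD8 libraries. Resting cells without the drug read 428 and 853. Fam64a, a mitotic regulator, read 114 and 762 in the Th2 libraries and 133 and 1241 in the CD8 libraries, and resting Th2 and CD8 cells read 930 and 733. Abcg3, a transporter, read 61.2 and 737 in the Th2 libraries and 36.7 and 199 in the CD8 libraries, and the resting levels were 744 and 137. In these genes as well the stimulated library without the drug was the lowest of each cell type. Rn7sk, the RNA polymerase III transcript that restrains elongation by RNA polymerase II, differed: it read 102 and 708 in the Th2 libraries and 58.1 and 601 in the CD8 libraries, while resting cells without the drug read 56.1 and 54.9. As 68.1% of its sequence words recur in other genes, its reads are less certain.

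Of 17 quiescence and homing genes 9 fell and 4 rose, against 22.5% lower and 13.9% higher over all genes. Txnip, which restrains glucose uptake, rose from 997 to 4664 in Th2 cells and from 868 to 3755 in CD8 cells. S1pr1, the receptor for lymph node exit, rose from 142 to 405 and from 274 to 738. Slfn2, on the same list for its part in T cell quiescence, fell from 36860 to 1644 in Th2 cells and from 11128 to 212 in CD8 cells.

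Some genes changed differently in Th2 and CD8 cells. With 1 pair per cell type this difference has no test, and the following genes were chosen for its size. Il3 changed by -7.40 in the Th2 pair and by -3.03 in the CD8 pair on the log2 scale. Spry1, an ERK pathway inhibitor, read 4529 and 96.1 in the Th2 libraries and 517 and 158 in the CD8 libraries, and the interferon-inducible gene Ifi203 read 1231 and 44.7 against 1080 and 638. Zbtb7c and Cxcl5 belong to this group only because neither had a read in the stimulated CD8 libraries, at 1035 and 36.2 and at 3073 and 177 in Th2 cells.

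In the opposite direction, Btg2, an antiproliferative gene, read 2282 and 2024 in the Th2 libraries and 7554 and 559 in the CD8 libraries. Nol4l read 702 and 447 in the Th2 libraries and 3262 and 186 in the CD8 libraries, and Hc, encoding complement C5, read 449.6 and 366 against 234 and 8.94. The Btg2, Hc and Nol4l calls did not pass without the CD8 pair (adjusted p = 0.809, 0.492 and 0.0543). Cd4 was higher with the drug in the Th2 pair (log2 change 0.89) and lower in the CD8 pair (-3.02), where it is not a lineage gene. Xcl1 is among these genes too, given above.

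Stimulated and resting cells came to look alike under the drug. Over the 10965 genes, log2 levels of stimulated and resting libraries correlated at r = 0.912 in Th2 cells and 0.940 in CD8 cells without the drug, and at 0.983 and 0.990 with it, as a description over genes. Without the drug 534 genes (4.87%) were at least 2-fold higher and 332 (3.03%) at least 2-fold lower in stimulated than in resting cells of both types, and with it 75 (0.684%) and 3 (0.0274%). Pim3 was among the 75, at 1486 and 763 in the stimulated against 223 and 52.2 in the resting libraries with the drug.

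The change with actinomycin differed between stimulated and resting cells for 681 genes (6.21% of those tested; limma on all 8 libraries as 4 pairs, interaction term, adjusted p under 0.05), 368 (3.36%) changing more negatively in stimulated cells and 313 (2.85%) more positively. This count lay between 46 and 4244 over the alternatives, and under the scaling to ribosomal protein genes 4002 of those calls were more positive and 242 more negative. By list, 13 of 24 mitosis genes had a more positive change in stimulated cells and none a more negative one, while 15 of 31 immediate-early factors, 7 of 12 NF-kB genes and 28 of 77 ribosomal protein genes had a more negative change. The interaction term is also the stimulated-minus-resting difference with the drug less that difference without it. A gene low in resting cells has little room to fall there, and the part of this in the counts was not tested. The median change of the mitosis list was 0.70 in stimulated and -0.62 in resting cells, and that of the ribosomal protein list 0.17 and 0.76.

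The 6 named genes with the more negative change in stimulated cells were Il2, Mmp13, Il1a, Ptgs2, Inhba and Egr3, each near 0 or low in resting cells. Inhba, encoding activin A, read 33998 and 430 in stimulated Th2 cells, 376 and 18.9 in stimulated CD8 cells, 192 and 352 in resting Th2 cells and 8.29 and 8.86 in resting CD8 cells. Its difference was -5.75 on the log2 scale (adjusted p = 0.0239). Egr3, a zinc finger factor of antigen receptor signalling, read 817 and 132, 1053 and 15.9, 41.3 and 135, and 6.22 and 10.8 in the same order. In the resting pairs of both genes the level with the drug was not below that without it.

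The 6 with the more positive change were Tet1, Txnip, S1pr1, Arhgef39, St8sia4 and Pik3ip1. S1pr1 showed a change of sign. It rose in stimulated cells, while in resting cells it read 2052 without and 392 with the drug in the Th2 libraries and 3288 and 769 in the CD8 libraries, a difference of 3.71 (adjusted p = 0.0131). Txnip behaved in the same way, with 9251 and 3655 in resting Th2 cells and 9081 and 2708 in resting CD8 cells. St8sia4, a polysialyltransferase, read 805 and 2991 in stimulated Th2 cells and 890.2 and 2194 in stimulated CD8 cells, whereas resting cells read 4857 and 1775 in Th2 and 4745 and 1617 in CD8 culture.

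**Figure D5:**
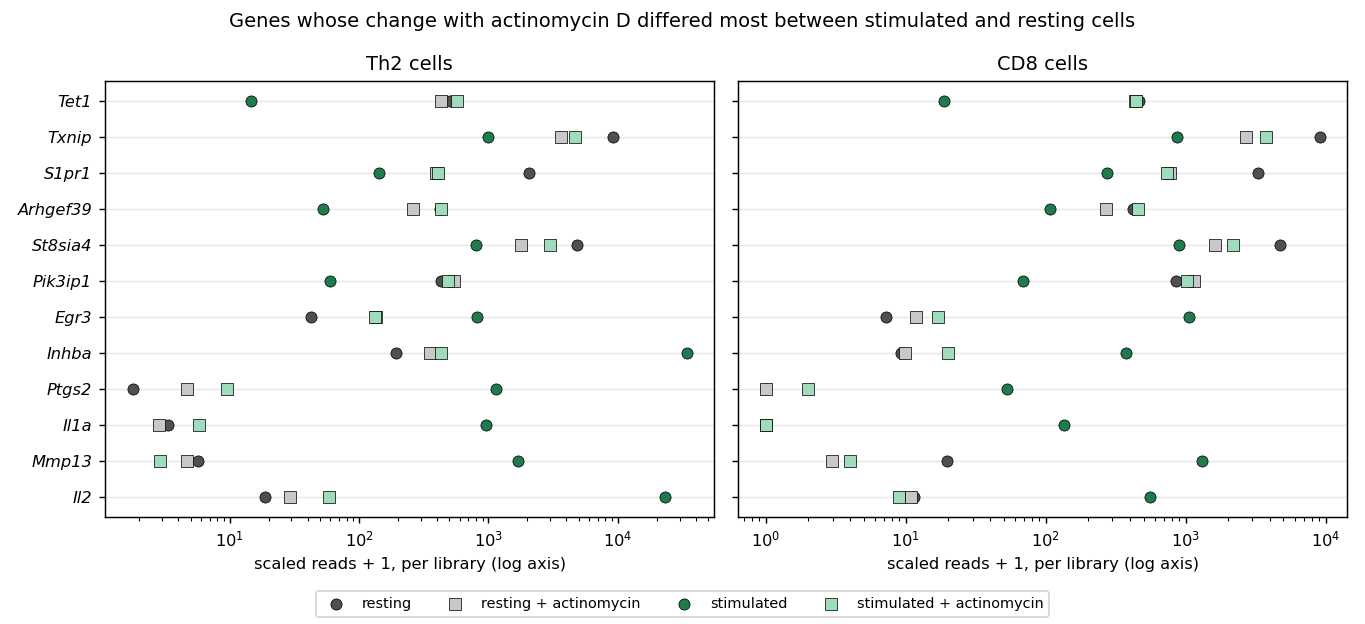
Scaled reads plus 1 (log axis) in resting and stimulated libraries without (circles) and with (squares) actinomycin D, in Th2 cells (left) and CD8 cells (right), for the 12 genes whose change differed most between the states. The squares of both states mostly lie close together, while the stimulated circles stand far to the right for Il2 (23234 in Th2 cells) and far to the left for Tet1 (13.6).

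Against 22.5% lower and 13.9% higher over all genes, 6 of the 15 genes the study names fell and 2 rose. Besides Pim3, they were Nr4a1 at -2.25, Ier3 at -1.55, Cd5 at -0.88, Ikzf1 at -0.86 and Actb at -0.62 among those that fell, and Usp25 at 1.11 and Cd3g at 0.77 among those that rose. Ier3, an immediate-early gene, read 3177 and 603 in the Th2 libraries and 1210 and 740 in the CD8 libraries, with 19.0% and 61.2% remaining. Nr4a1, an early reporter of antigen receptor signalling, read 799.6 and 297 in the Th2 libraries and 1936 and 227 in the CD8 libraries. Cd3g, a chain of the T cell receptor complex, read 15036 and 29956 in the Th2 libraries and 12237 and 17755 in the CD8 libraries. Without the Th2 pair Ier3 (-0.71, adjusted p = 0.196), Cd5 (-0.48, adjusted p = 0.0793), Actb (-0.29, adjusted p = 0.365) and Cd3g (0.54, adjusted p = 0.0712) did not pass. Stat6 (-0.53), Arrb2 (-0.02), Cd8b1 (0.34), Hif1a (0.40), Cd3e (0.53), Gpx4 (0.69) and Cd4 (-1.06) did not pass, with adjusted p from 0.0526 for Gpx4 to 0.954 for Arrb2. Some of these passed elsewhere. Gpx4 and Cd3e passed after quantile normalisation, after scaling to the library total and with all 8 libraries. Stat6 passed after scaling to the ribosomal protein genes and with all 8 libraries, and Hif1a after scaling to the library total. The change of Gpx4 was 0.73 without the Th2 and 0.66 without the CD8 pair. Without the CD8 pair that of Cd3e was 0.59 and that of Stat6 -0.67.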

How the data were processed

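RNA-seq was measured in 8 libraries, 1 per condition, of which 4 are from stimulated cells. The deposited gene values are a signal: the submitters' processing notes name mm10, STAR and Bowtie2 without roles or versions, and the values are whole reads divided by 1 factor per library, which was tested on the values (100% whole within 0.01 read in each library). They are not FPKM, the unit the study's methods name. Peaks of GCLiPP carry a score given by the authors and are pooled over 10 libraries, so conditions were not compared in them. A further deposited table that repeats these values beside the authors' own fold changes was not used.

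Values were taken as log2(value + 1) for genes with a mean of at least 50 over the 4 libraries. Limma 3.58.1 (R 4.3.3, trended prior) was fitted with cell type as block, leaving 1 residual degree of freedom beside a prior of 12.7, and to all 8 libraries as 4 pairs for the interaction. P-values were adjusted by Benjamini-Hochberg over all 10965 genes, with a threshold of 0.05. Fold changes are on the log2(value + 1) scale, which understates changes of low genes. edgeR 4.0.16 and DESeq2 1.42.0 on the recovered reads were alternatives. Fits of the change with actinomycin that left out a stimulated pair used the other stimulated pair and both resting pairs. Their residual spread comes from the resting pairs. The fits were tested on simulated data. Sequence sharing (words of 50 bases), exons and 3′ UTRs came from GENCODE M21, with 10911 genes matched. Intervals and limits for a count of 0 cover counting error only. Whether the authors counted by strand was not stated, so reads of overlapping genes cannot be told apart.

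Members and gene lists were chosen with earlier results of these data known. Named genes were the 12 largest changes in each direction with a mean of at least 250, agreement of both pairs and no predicted model name, then the leading called members of each list (up to 4, and those of opposite sign), the genes the study names, the 5 in each direction that differed most between Th2 and CD8 cells, and the 6 in each direction that differed most between states. Some members of the lists are not reported here by name.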

Additional observations from a re-analysis of the deposited data

Results flagged for a closer look

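The change with actinomycin differed between stimulated and resting cells, by the limma interaction term, in 25 of the genes with the largest changes, chosen for this difference or named by the study, with the difference given as stimulated minus resting on the log2 scale. It was negative in 14 of them. For cytokines, chemokines and growth factors it was -7.59 for Il2, -7.11 for Il1a, -5.75 for Inhba, -4.95 for Ccl4 and -3.45 for Pdgfb. For enzymes it was -7.27 for Mmp13, -6.51 for Ptgs2 and -4.18 for Mmp10. For transcription factors and feedback regulators it was -5.49 for Egr3, -5.10 for Nr4a3, -3.10 for Nr4a1, -2.89 for Dusp2 and -2.30 for Nfkbia, and it was -3.29 for Tagap. It was positive in 11, at 5.08 for Tet1, 3.71 for Txnip, 3.71 for S1pr1, 3.23 for Arhgef39, 3.10 for St8sia4, 3.08 for Pik3ip1, 2.93 for Abcg3, 2.87 for Fam64a, 2.14 for Rad51c, 1.97 for Armcx6 and 1.11 for Usp25. Since the choice of most of these genes used the stimulated pairs or the difference itself, their number supports nothing.

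In 2 of the genes the study names the stimulated pairs moved in opposite directions, and the difference was not tested, since each cell type has 1 pair. Cd4 changed by 0.89 in Th2 cells and by -3.02 in CD8 cells. Arrb2 changed by -0.14 in Th2 cells and by 0.10 in CD8 cells, both small beside its SE of 0.23.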

How the results depend on the processing

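By replicate number, no paired analysis was possible because the RNA-seq labels carry none; the pairs used throughout are those of the cell types. Without the cell type block 96 genes passed, 3 higher and 93 lower. After scaling to the ribosomal protein genes 731 genes rose. Leaving out either stimulated pair gave 4269 to 5182 calls, 2543 to 2904 lower and 1726 to 2278 higher; in these fits the lone pair is assumed to vary like the others. The count of genes that differed between stimulated and resting cells (681, of which 313 higher and 368 lower) was 359 (153 and 206) with no filter, 4244 (4002 and 242) after scaling to the ribosomal protein genes, 46 (14 and 32) with no trend in the prior and 1698 (751 and 947) by DESeq2, and 568 were higher after scaling to the library total. Leaving out 1 pair gave 260 to 2921 (74 to 1364 higher, 184 to 1557 lower): 260 without the Th2 resting, 270 without the CD8 resting, 1165 without the Th2 stimulated and 2921 without the CD8 stimulated pair. The causes were not tested. Cd4 turned to 0.89 without the CD8 pair (-3.02 without the Th2 pair) and Il5 to 0.0075 without the Th2 pair (-3.63 without the CD8 pair). Arrb2 turned to 0.18 with quantile normalisation, 0.11 with scaling to the total, 0.0052 by DESeq2 and 0.10 without the Th2 pair (-0.14 without the CD8 pair). Peaks of genes that rose held ATTTA in 6.80% of cases above the median score. Of the 197 named genes, 165 lost their call under at least 1 alternative, in most without the block. One alternative was chosen after seeing the data: genes sharing at most 5% of their sequence words. With a single library per condition, a difference in preparation between libraries cannot be told apart from the drug.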
